A study of Mus musculus with 24 samples.

Results

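The Hox genes of the mouse lie in 4 clusters, and their chromatin accessibility was followed here through cardiac differentiation. Of their genes, 38 were examined: members of Hoxa on chromosome 6, Hoxb on chromosome 11, Hoxc on chromosome 15 and Hoxd on chromosome 2. A peak summit belonged to a member when it lay inside the gene's body, or, when it lay in no protein-coding gene, when a member was the nearest gene body within 50 kb. All 38 members were matched in the RefSeq table of GRCm38.p6, the assembly that mm10 names. By this rule 583 of the 518537 summits in the 12 deposited peak lists were Hox summits, 117 of them at Hoxa, 215 at Hoxb, 124 at Hoxc and 127 at Hoxd. After merging the lists, 104 of 128679 accessible regions were Hox regions, with 20, 37, 26 and 21 in the same order. At the edge of the distance limit, a region 49.3 kb from Hoxc4 and one 45.5 kb from Hoxb1 fell inside, and one 81.4 kb from Hoxc13, called at D15 alone, fell outside.

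Accessibility was measured by ATAC-seq, in which a transposase inserts adapters into open DNA, in mouse embryonic stem cells of the line A2lox.cre. Cells at the 2i stage, a culture condition named for a pair of kinase inhibitors that keeps stem cells naive, were followed by cells at days 0 to 8, 10 and 15 of differentiation towards cardiomyocytes, written D0 to D8, D10 and D15. The labels name no genotype change or treatment that sets time points apart, and all 24 samples come from this single line, with 2 biological replicates at each of the 12 time points. Each time point has 1 peak list, named by both of its replicates, so no spread between replicates could be given and no difference between time points was tested. A time point was a mixture of cells, so a site open in fewer cells and a site less open in each cell cannot be told apart.

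Hox genes encode homeodomain transcription factors that set position along the head-to-tail axis of the embryo. Within a cluster the genes stand in the order in which they are used: paralog groups 1 to 4 are expressed earliest and furthest towards the head, and groups 9 to 13 latest and furthest towards the tail. Here groups 1 to 4 are called anterior, 5 to 8 central and 9 to 13 posterior. In embryonic stem cells the clusters are known targets of Polycomb repression and are rich in CpG dinucleotides. Retinoic acid and CDX proteins act upstream of them, PBX and MEIS proteins bind DNA with HOX proteins, and Hoxb1 is a known marker of progenitors of the posterior second heart field.

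The lists held 31324 peaks (D1) to 66993 peaks (D7), and the sources used here do not give their sequencing depth. Among peaks whose fold enrichment lay between 4.9 and 5.1, the median −log10 p, which grows with background coverage, was 7.69 at 2i and 7.71 at D4 and 8.62 to 11.6 in the other lists. A region absent from a list was therefore not called there and is not shown to be closed. Of 5 naive pluripotency markers, 5 had a peak at their start at 2i and 1 at D15. Of 6 cardiomyocyte markers, 2 had one at 2i, 5 at D5 and 3 at D15. The starts of Actn2 and Ryr2 were called in all 12 lists. That of Tnnt2, cardiac troponin T, was called from D5 to D15, and that of Nkx2-5 at D2, D3 and D5 to D8. The start of Myh7 was called at D5 alone and that of Myh6 in no list. Among pairs of markers of other cell types, 0 of 2 endothelial, 2 of 2 fibroblast, 2 of 2 smooth muscle and 1 of 2 neural genes had a start peak at D15. At 2i these were 0, 0, 0 and 1 of 2. The part of such cells in the Hox results was not tested.

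Hox summits were scarce in the first lists, frequent at D2 and D3, few at D4, frequent again from D5 to D8 and fewer afterwards. The counts were 30 at 2i, 23 on D0, 14 on D1, 66 on D2, 85 on D3, 18 on D4, 55 on D5, 77 on D6, 98 on D7, 63 on D8, 23 on D10 and 31 on D15. Since lists differ in length, each count was also given per 1000 peaks of its list, with a 95% Wilson interval that covers counting error only. The share was 0.447 per 1000 peaks at D1 (0.266 to 0.750), 2.14 on D3 (1.73 to 2.64), 0.321 on D4 (0.203 to 0.508) and 2.35 on D6 (1.88 to 2.93). The D4 interval lay below those of D2, D3 and D5 to D8, which is a description and no test. Summits can share a peak interval and are then not independent counts: with each interval counted once, D6 had 60 in place of 77. The D10 interval, 0.470 to 1.06 around 0.705, overlapped those of 2i, D0 and D1. With peaks of a fold enrichment of at least 5 alone, D3 had the highest share, at 1.41 against 0.819 on D6. With lists cut to equal length, the D7 share was 0.702 in place of 1.46.

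**Figure D1:**
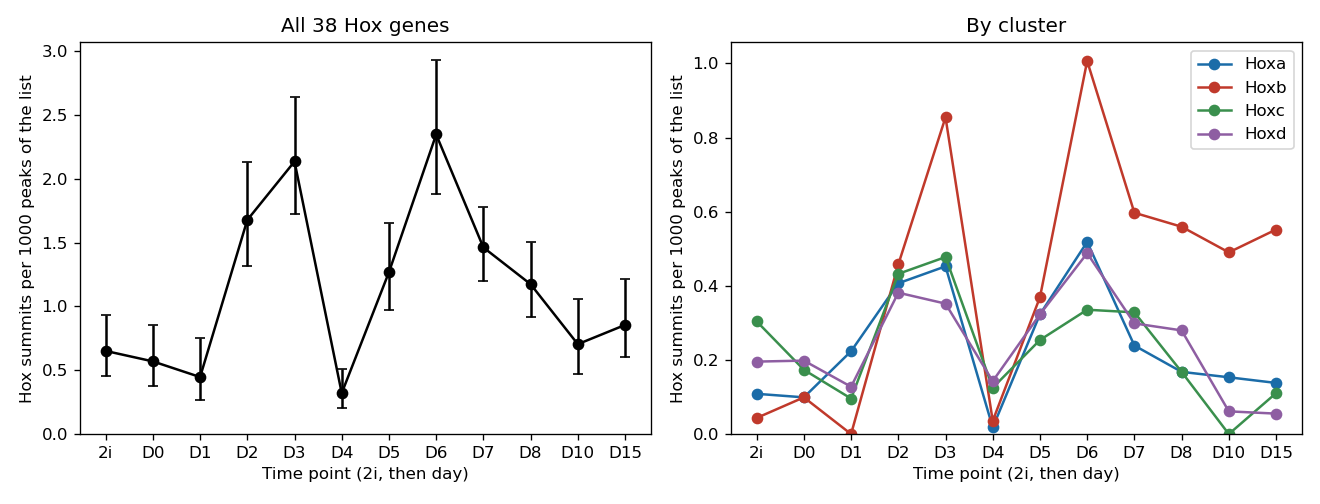
Hox summits per 1000 peaks of each list against time point. The left panel shows all 38 genes with 95% Wilson intervals (counting error only); the right panel shows the 4 clusters on its own scale. D3 and D6 stand highest, at 2.14 and 2.35, and D4 lowest, at 0.321.

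The 4 clusters each held fewer summits at D4 than at D3 or D5, and they parted at the end of the course. For Hoxc and Hoxd the D4 counts, 7 and 8, were the same as at D0. At D3 and D4 the summits went from 18 to 1 at Hoxa, from 34 to 2 at Hoxb, from 19 to 7 at Hoxc and from 14 to 8 at Hoxd. At 2i, D0 and D1 the Hoxb cluster held 2, 4 and 0 summits, while Hoxc held 14, 7 and 3. At D10 and D15 this order was turned: Hoxb held 16 and 20 summits, Hoxa 5 and 5, Hoxc 0 and 4, and Hoxd 2 and 2. The count of 0 allows up to 0.096 Hoxb summits per 1000 peaks at D1 and up to 0.092 Hoxc summits at D10 (3 counts of the list). Anterior genes held 277 summits over all lists, central genes 87 and posterior genes 219. At 2i, 18 of 30 summits were posterior and 8 anterior. At D15, 7 of 31 were posterior and 22 anterior, 18 of these at Hoxb.

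The peaks at Hox genes were low ones within their lists. Fold enrichment, the authors' ratio of signal to background at a peak, had a median of 4.78 over Hox summits at 2i beside 5.08 over the whole list. At D3 the medians were 4.27 and 6.39, at D4 4.68 and 4.77, and at D15 3.86 and 5.17. The Hox median was below the list's in all 12 lists. Fold enrichments in different lists stand side by side below as values of single peaks, and no change between lists is read from them.

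The map of regions by time point shows that few Hox regions were called throughout. Of the 104 regions, 1 was called in all 12 lists, against 8.62% of all merged regions, and 24 in a single list, against 43.7% of all. In all, 19 were called in 8 or more lists, against 14.1%. A first call at D2 or D3 was made for 47 regions, against 11.5% of all. Regions called at 2i and D0 and not at D10 or D15, termed early-lost, numbered 11 of 104, a share near the 9.56% of all merged regions. Regions called at D10 and D15 and not at 2i or D0, termed late-gained, also numbered 11 (3.8% of all). Both names refer to the ends of the course alone, and regions of either class can be called in any list from D1 to D8. Transient regions, called in 2 or more neighbouring lists between D1 and D8 but never at 2i, D0, D10 or D15, numbered 25 (14.7% of all). Late-gained regions were found at Hoxb, with 9, and at Hoxa, with 2, and at neither Hoxc nor Hoxd, whereas 5 of the 11 early-lost regions were at Hoxd. The remaining 56 regions were in no class. With a −log10 q of at least 5, 70 Hox regions were left, of which 4 were early-lost (5.71%, beside 8.23% of all) and 3 late-gained (4.29%, beside 3.92% of all), so the late-gained share was near that of all regions. None was then called in all 12 lists, beside 10.8% of all. With lists cut to equal length, 9 of 75 Hox regions were late-gained (12%, beside 5.88% of all).

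**Figure D2:**
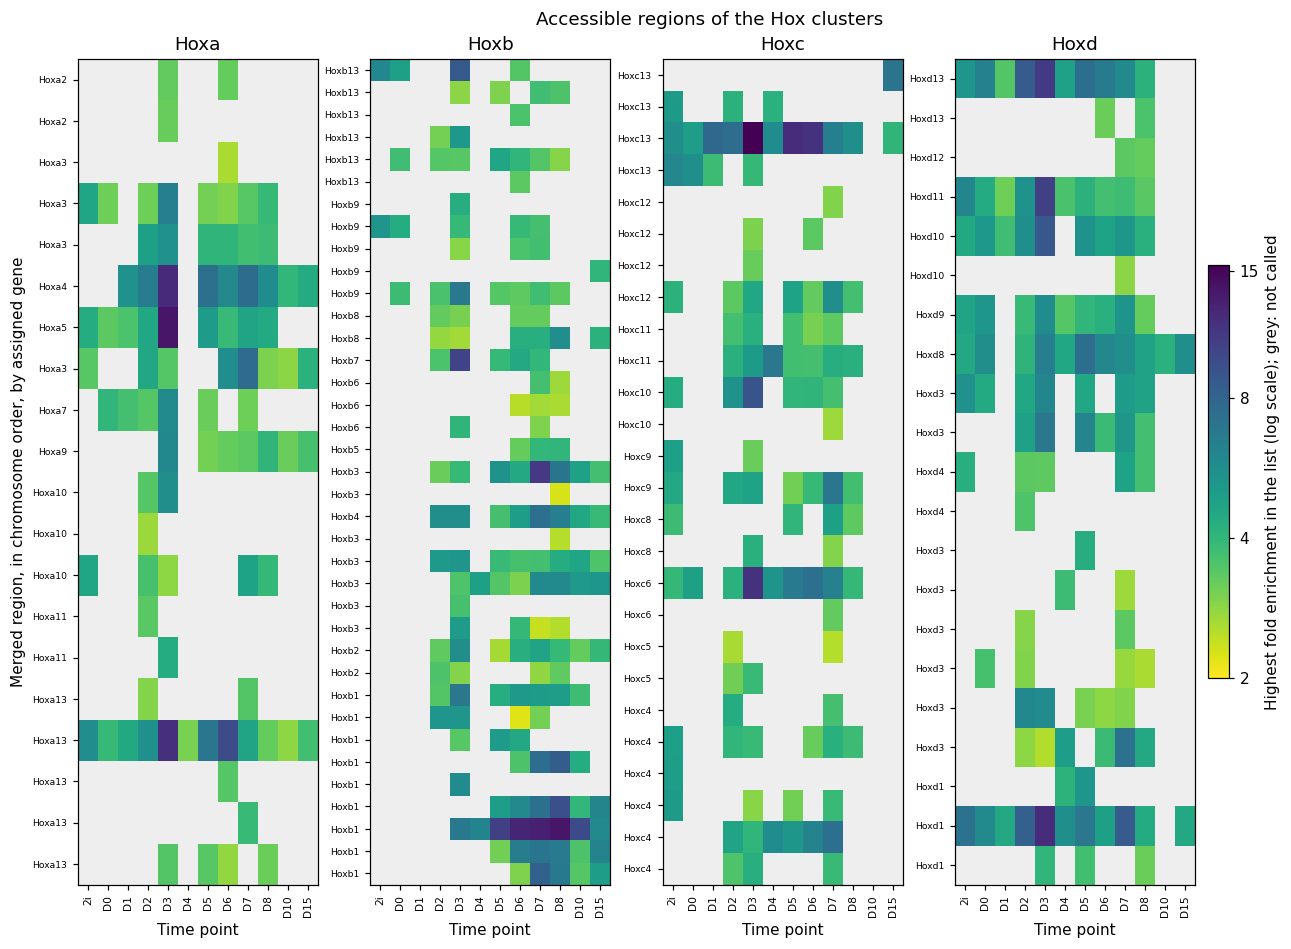
Each row is 1 merged region in chromosome order, named by its assigned gene, and each column is a time point. Colour gives the highest fold enrichment of the region in that list on a log scale, and grey means not called. The lower Hoxb rows are filled from D5 to D15, while the D4 column is mostly grey.

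A gene's start was called when a summit lay within 1 kb of it. Between 5 and 28 Hox starts were called per list, while the share over all protein-coding genes stayed between 53.3% and 65.8%. Members with a start peak numbered 13 of 38 at 2i, where 57.4% of all 21631 genes had one, 10 on D0 (57.9%), 8 on D1 (53.3%), 23 on D2 (63.1%), 28 on D3 (64.2%) and 7 on D4 (61.5%). They numbered 17 on D5 (62.8%), 21 on D6 (61.2%), 28 on D7 (65.8%), 20 on D8 (64.2%), 5 on D10 (58.5%) and 8 on D15 (57.7%). With lists cut to equal length, 5 members had a start peak at D7, beside 60% of all genes, and 8 at D8, beside 59.7%. The median member's start was called in 5 lists and the median gene's in 11. Hoxa13 was the single member called in all 12 lists, against 47.1% of genes, and 18 members were called in 3 to 9 lists, against 10.9%. Starts called in no list were those of Hoxa3, Hoxa6, Hoxa9, Hoxb3, Hoxb8 and Hoxd4, 6 members against 28.8% of genes. Hoxa6 also held no summit in its body in any list.

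**Figure D3:**
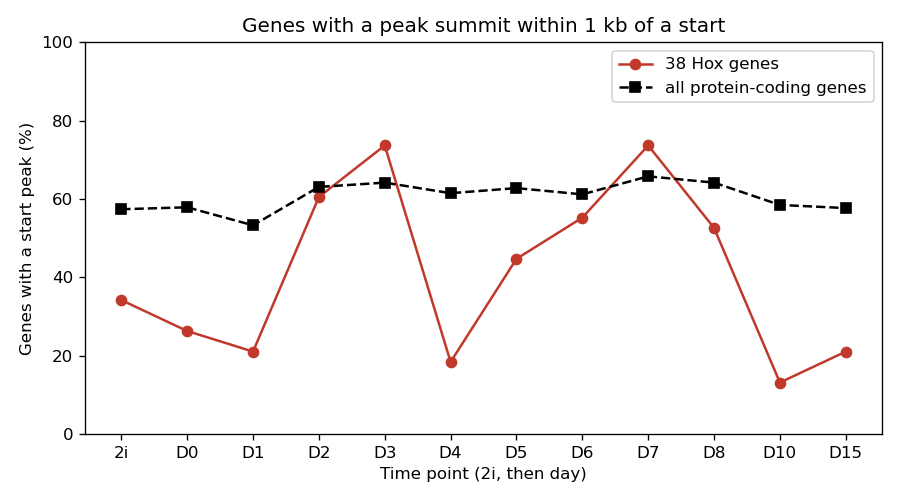
Percent of genes with a peak summit within 1 kb of a start, by time point, for the 38 Hox genes (circles) and all protein-coding genes (squares). The line for all genes stays between 53.3% and 65.8%, while Hox counts run from 5 members at D10 to 28 at D3 and D7.

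Promoter sequence was read for the 22 members in the RefSeq table of starts (GRCm38.p6). The 250 bases before the start are shown for 6 members that span the range of calls, with each CpG dinucleotide in capitals. Hoxa13 was called in 12 lists, Hoxd1 in 11, Hoxd13 in 10, Hoxb4 in 8, Hoxb1 in 4 and Hoxa6 in none. The windows are chr6:52260881-52261130 (minus strand), chr2:74762730-74762979 (plus), chr2:74667975-74668224 (plus), chr11:96318017-96318266 (plus), chr11:96365508-96365757 (plus) and chr6:52208673-52208922 (minus), in that order.
Hoxa13: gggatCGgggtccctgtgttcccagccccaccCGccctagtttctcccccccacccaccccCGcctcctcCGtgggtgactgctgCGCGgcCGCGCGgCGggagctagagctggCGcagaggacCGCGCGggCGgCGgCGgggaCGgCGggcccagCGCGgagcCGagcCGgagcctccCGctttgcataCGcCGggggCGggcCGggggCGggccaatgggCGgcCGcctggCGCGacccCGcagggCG
Hoxd1: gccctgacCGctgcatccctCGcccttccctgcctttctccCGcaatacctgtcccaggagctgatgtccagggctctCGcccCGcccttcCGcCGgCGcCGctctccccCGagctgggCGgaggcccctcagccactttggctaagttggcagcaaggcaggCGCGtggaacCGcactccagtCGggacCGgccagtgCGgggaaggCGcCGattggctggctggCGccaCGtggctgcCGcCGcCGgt
Hoxd13: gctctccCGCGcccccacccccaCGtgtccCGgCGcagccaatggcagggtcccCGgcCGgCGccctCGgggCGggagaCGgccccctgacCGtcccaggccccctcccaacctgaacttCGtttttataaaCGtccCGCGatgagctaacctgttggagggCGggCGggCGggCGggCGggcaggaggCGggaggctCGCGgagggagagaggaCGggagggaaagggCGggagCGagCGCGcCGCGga
Hoxb4: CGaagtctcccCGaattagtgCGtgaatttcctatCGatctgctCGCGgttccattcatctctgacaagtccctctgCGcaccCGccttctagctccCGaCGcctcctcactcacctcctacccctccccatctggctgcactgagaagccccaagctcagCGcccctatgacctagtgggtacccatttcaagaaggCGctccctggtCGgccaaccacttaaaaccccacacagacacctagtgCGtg
Hoxb1: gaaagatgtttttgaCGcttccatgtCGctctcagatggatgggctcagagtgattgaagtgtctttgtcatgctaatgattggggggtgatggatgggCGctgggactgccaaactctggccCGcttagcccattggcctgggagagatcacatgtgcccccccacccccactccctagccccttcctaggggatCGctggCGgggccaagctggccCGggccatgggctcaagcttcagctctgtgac
Hoxa6: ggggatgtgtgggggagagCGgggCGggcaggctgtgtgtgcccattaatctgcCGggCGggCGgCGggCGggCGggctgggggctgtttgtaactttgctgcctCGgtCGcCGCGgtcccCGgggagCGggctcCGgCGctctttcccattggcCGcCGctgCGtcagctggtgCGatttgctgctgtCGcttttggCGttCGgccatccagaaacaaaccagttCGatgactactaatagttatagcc
These windows held 35 CpGs at Hoxa13, 24 at Hoxd1, 31 at Hoxd13, 14 at Hoxb4, 7 at Hoxb1 and 24 at Hoxa6. Over 24 Hox promoters the median was 12.5 CpGs (2 to 35), beside 10 over 21045 promoters of all genes. The 10 Hox promoters of genes with a start called in 8 or more lists had a median of 20 CpGs, and the other 14 a median of 9. Calls were counted by gene, so both starts of Hoxd11 stand in the first group. Single promoters went against that order in both directions. Hoxa6, with 24 CpGs, and Hoxa3, with 18, were called in no list. Hoxd8, with 6 CpGs, was called in 8 lists. Hoxd11, called in 10, had 2 CpGs before one start and 20 before the other, and its region lay over the latter. Hoxa10, called in 5, had 20 CpGs before one start and 7 before the other. The region called in those 5 lists (52240300 to 52240771) lay beside the start with 7. Another region (52233944 to 52234409), within 1 kb of the start with 20, was called at D2 alone, at 2.73.

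Posterior starts of Hoxd were called before differentiation and not in its last lists. Hoxd13 and Hoxd11, which pattern limbs and the tail end of the body, had start peaks in each list from 2i to D8, 10 lists in all. The region over the Hoxd13 start (chromosome 2, 74667638 to 74668966) had fold enrichments of 5.27 at 2i, 6.30 on D0, 3.45 on D1, 8.58 on D2, 10.9 on D3, 4.79 on D4, 7.37 on D5, 6.65 on D6, 5.78 on D7 and 4.16 on D8. It was called neither at D10 nor at D15. The Hoxd11 region (74681483 to 74682933) had 6.03 at 2i, 10.5 on D3, 3.59 on D4 and 3.37 on D8, with the same lists. Hoxd10 and Hoxd9 starts were called in 9 lists each, and these 4 posterior regions all belonged to the early-lost class. All 4 were still called at D8. Hoxd12, between them, was called at D7 and D8 alone.

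Of the other Hoxd members, the starts of Hoxd8 and Hoxd1 were called at D15, and that of Hoxd3 last at D8. The Hoxd4 start was called in no list, and regions in the body of Hoxd4 were last called at D8. The region at Hoxd8 (74704660 to 74705965), a central member, was called in 11 lists, all but D1, with 4.48 at 2i, 6.42 on D3, 4.19 on D10 and 5.58 on D15. Its summits lay within 1 kb of the annotated start in 8 of those lists. Hoxd1, the anterior end of the cluster, was called in 11 lists, all but D10, with 7.20 at 2i, 11.9 on D3, 8.58 on D7 and 4.48 on D15. Hoxd3 carried 8 regions, most in the cluster, and its start was called in 7 lists (2i, D0, D2, D3, D5, D7 and D8). The region over that start (74711752 to 74712618) was early-lost, like the 4 posterior regions, with 5.51 at 2i and 4.75 on D8. A region 4.87 kb to the right of Hoxd3 reached 7.14 on D7 and was also called at D4, at 4.96. The counts of called starts over Hoxd were 6 of 9 at 2i, 8 on D7 and D8, 1 on D10 and 2 on D15.

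Anterior Hoxb, the regions assigned to Hoxb1 to Hoxb4, showed the opposite timing. None of its 19 regions was called at 2i, D0 or D1, where 32 of the 104 Hox regions and 41.5% of all merged regions were. It held 7 regions at D2, 13 on D3, 2 on D4, 10 on D5, 14 on D6 and D7, 15 on D8, 11 on D10 and 9 on D15. Of the 21 Hox regions called at D10 or D15 (24.8% of all merged regions were), 11 were in this stretch. The other 18 Hoxb regions numbered 12 on D7 and 0 and 2 on D10 and D15. All 9 late-gained Hoxb regions were anterior. With peaks of a fold enrichment of at least 5 alone, 6 of 50 Hox regions were called at D10 or D15, beside 27.2% of all regions, and 4 of the 6 were in this stretch.

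Within this stretch, starts at the anterior end were called for different lengths of time. Hoxb4 had a start peak at D2, D3 and in each list from D5 to D15. Its region (chromosome 11, 96318166 to 96320339) had fold enrichments of 5.63 on D2, 5.63 on D3, 3.65 on D5, 4.9 on D6, 7.34 on D7, 6.42 on D8, 4.58 on D10 and 3.86 on D15. Hoxb2 was called at D2, D3, D6, D7, D8, D10 and D15, with 5.61 on D3 and 3.96 on D15. Hoxb1 was called at D2 (5.27), D3 (5.30), D6 (2.22) and D7 (3.06) and in no list from D8 onward. Hoxb3, whose annotated body runs over 96307101 to 96347930 and so across Hoxb4, carried 7 regions and no called start. One of them (96311502 to 96312553) had 10.9 on D7 and 3.70 on D15.

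To the right of Hoxb1, beyond the anterior end of the cluster, stood the highest Hox peak of each list from D6 to D10. A region 29.1 kb from the gene body (chromosome 11, 96396877 to 96397863) was called in 8 lists. Its fold enrichment was 6.74 on D3, 6.14 on D4, 10.5 on D5, 12.5 on D6, 12.9 on D7, 13.6 on D8, 9.74 on D10 and 5.90 on D15. At D8 this peak stood above 96.2% of its list. Regions 14.4 kb and 39.5 kb away were called in each list from D5, with 9.37 and 6.61 on D8 and 6.08 and 6.19 on D15. A region 45.5 kb away was called from D6, with 8.15 on D7 and 4.95 on D15. These 4 regions lay in no protein-coding gene. They stayed on the lists at D8, D10 and D15, in which the Hoxb1 start itself was not called. Which gene they act on, if any, was not measured.

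**Figure D4:**
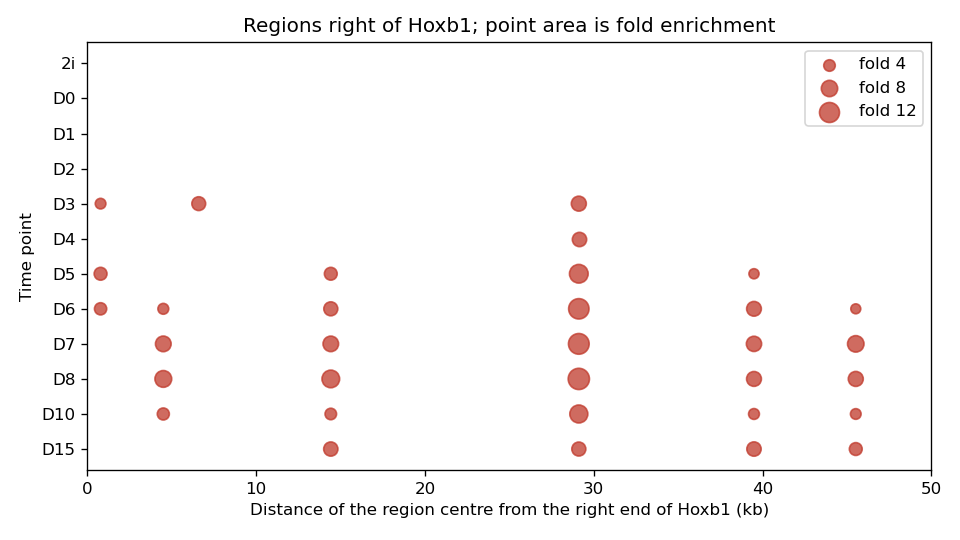
Regions to the right of Hoxb1 by distance from the gene body and time point. The area of a circle is proportional to fold enrichment. Regions over the Hoxb1 start and to the left of the gene are not drawn. The 4 regions more than 10 kb to the right fill the lists from D6 to D15, and up to D10 the region at 29.1 kb has the widest circles. At D15 its 5.90 lies below the 6.08 and 6.19 of its neighbours at 14.4 and 39.5 kb.

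Central and posterior Hoxb was called mainly between D2 and D8. Starts were called in 3 lists at Hoxb5 (D6 to D8), in 6 at Hoxb7, in 6 at Hoxb9, in 5 at Hoxb13 and in 1 at Hoxb6. The region beside Hoxb7 (96285162 to 96285918), between Hoxb7 and Hoxb8, had 3.58 on D2, 10.2 on D3, 3.92 on D5, 4.51 on D6 and 4.00 on D7. A region 3.93 kb left of Hoxb13 (96190177 to 96190588) was early-lost, with 5.93 at 2i, 4.82 on D0, 8.63 on D3 and 3.47 on D6. Hoxb13 carried 6 regions and Hoxb9 carried 5, several of them in the long stretch between these genes that holds no other Hoxb member.

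Hoxa combined the most lasting start with some of the least called. The Hoxa13 region (chromosome 6, 52259854 to 52261341) had fold enrichments of 5.65 at 2i, 3.93 on D0, 4.44 on D1, 5.54 on D2, 11.7 on D3, 3.03 on D4, 6.89 on D5, 9.63 on D6, 4.66 on D7, 3.24 on D8, 2.83 on D10 and 3.71 on D15. It was the single Hoxa region called at D4. Hoxa4 and Hoxa5, an anterior and a central neighbour, had their starts called in 9 lists each and had the highest Hoxa folds at D3, 12 and 13.7. They differed in timing: Hoxa4 (52190913 to 52192365) was first called at D1 and still at D10 and D15, with 3.99 and 4.40. Hoxa5 (52203247 to 52204757) was called from 2i and last at D8, with 4.36 and 4.43. A late-gained region 1.33 kb left of Hoxa9 had 5.96 on D3 and 3.63 on D15. Hoxa10 starts were called in 5 lists, and those of Hoxa2, Hoxa7 and Hoxa11 in 2 each. Hoxa3 carried 4 regions, in a body (52169059 to 52213067) that runs across several neighbours.

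Hoxc starts were called most at D3 (8 of 9) and D7 (7 of 9) and not at all at D10. Hoxc13, which is known from hair and nail formation, was called in 11 lists, all but D10. Its region (chromosome 15, 102920384 to 102922177) reached 15.4 on D3, the highest fold of any Hox region in that list and above 84.9% of its peaks. The same region had 5.59 at 2i, 5.73 on D4, 11.9 on D5 and 4.04 on D15. Hoxc11, for which either gene end counted as a start, was called from D2 to D8. At D4 and D8 its single called region (102955666 to 102956440) lay within 1 kb of the right gene end (102956701). That region lay more than 1 kb from the left end (102954526), so these 2 calls can stand for the transcript end. It had 6.86 on D4, beside 5.05 on D3 and 3.70 on D5. Hoxc10 and Hoxc4 starts were called in 6 lists each and Hoxc5 in 3. Hoxc12, a posterior member, carried 4 regions with 11 summits, and its start was called at D3 and D6. The most often called of these regions, 4.63 kb to its right (102942839 to 102943641), had 4.16 at 2i, 4.54 on D3, 5.62 on D7 and 3.69 on D8. The Hoxc6 region (102998844 to 102999952) was early-lost, with 3.94 at 2i, 11.5 on D3 and 3.97 on D8. Hoxc4 carried 6 regions, 1 of them 32.7 kb to the right of the gene and called in each list from D2 to D7, with 5.72 on D4 and 7.29 on D7. At D15 a region 16.2 kb left of Hoxc13 was called for the first time, at 7.04.

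The gap at D4 was larger at Hox regions than over all regions. Of 39 Hox regions called at both D3 and D5, 27 were not called at D4, which is 69.2% (Wilson interval 53.6 to 81.4), beside 12.8% of all regions called at D3 and D5. They were 7 of 8 at Hoxa, 10 of 12 at Hoxb, 5 of 9 at Hoxc and 5 of 10 at Hoxd. Low regions were missed more often in both sets, and the Hox share was the larger in each range of D3 fold. The ranges do not match height within them: the highest Hox region at D3, at 15.4, stood above 84.9% of that list. The part of height in the gap was not tested. Among regions with a D3 fold under 5, 10 of 12 Hox regions and 32.4% of all were missing at D4. Between 5 and 8 these were 12 of 16 and 23.4%, and at 8 or more 5 of 11 and 5.48%. When lists were cut to equal length, 13 of 18 Hox regions were missing at D4, beside 18.5% of all. This comparison was chosen after the values had been seen. D4 was among the lists with the least statistical weight for a given fold. Its list was nevertheless long, with 56053 peaks beside 39783 at D3 and 43341 at D5. Over all merged regions, 48903 were called at D4, 34783 at D3 and 37368 at D5. The part of statistical weight or list length in the gap was not tested.

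**Figure D5:**
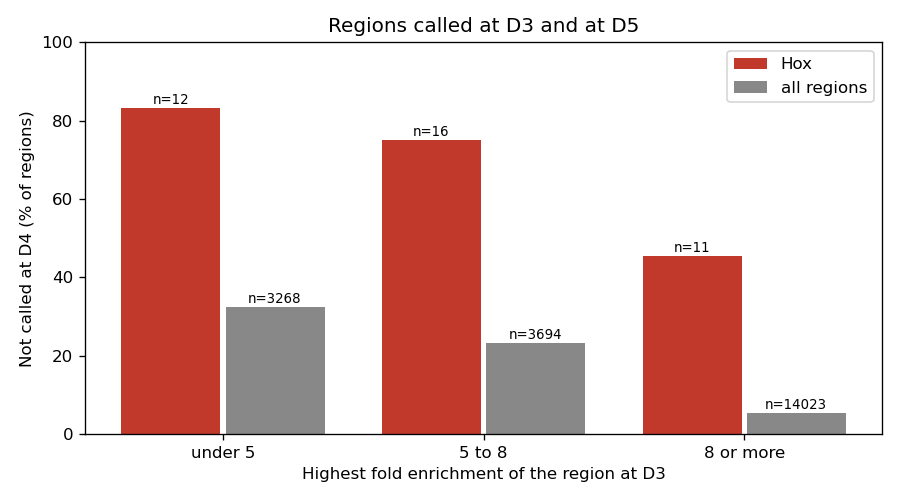
Percent of regions called at D3 and at D5 that were not called at D4, by the highest fold enrichment of the region at D3, for Hox regions (red) and all merged regions (grey), with the number of regions above each bar. Hox bars stand at 5 of 11 or more in each range, and bars for all regions at 32.4% or less.

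Values for 2 other families stand beside the D4 gap. The Iroquois genes, another homeobox family in clusters, held 13 summits at D3, 26 at D4 and 18 at D5, or 0.327, 0.464 and 0.415 per 1000 peaks. Genes of the Hox cofactors of the PBX, MEIS and PKNOX families had 1.48, 1.27 and 1.38 per 1000 peaks. The difference between these families and Hox genes was not tested.

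After D8 the Hox regions were kept less often than the average region. Of 47 Hox regions called at both D7 and D8, 19 were called again at D10 or D15, which is 40.4% (27.6 to 54.7), beside 62% of all such regions. They were 4 of 8 at Hoxa, 12 of 20 at Hoxb, 1 of 7 at Hoxc and 2 of 12 at Hoxd. With lists of equal length the share was 12 of 13 Hox regions beside 83.7% of all, so the order was turned. The first calls at D2 ran the other way: of 53 Hox regions called at D2, 28 had been called at none of 2i, D0 and D1, 52.8% (39.7 to 65.6) beside 24.9% of all, with 11 of 13 at Hoxb. These comparisons were also chosen after the values had been seen.

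In each cluster the length under peak intervals was lower at D4 than at D3 and D5, and lower at D10 than at D8. At D6, the list with the highest share of Hox summits, it was lower than at D3 and D7 in each cluster. It was then 5.56% at Hoxa, 5.28% at Hoxb, 3.12% at Hoxc and 5.84% at Hoxd, where Hoxc and Hoxd had 7.25% and 8.21% on D3. Peaks covered 0.35% of the Hoxb span at 2i (1 interval), 7.38% on D3 (24 intervals, mean width 548 bp), 0.27% on D4 (1 interval), 9.06% on D7 (23 intervals, 685 bp) and 3.92% on D15 (8 intervals, 851 bp). Coverage of Hoxd was 4.82% at 2i, 4.37% on D4, 11.4% on D7 and 1.45% on D15, and that of Hoxc 4.71%, 1.34%, 6.99% and 0.87%. Hoxa was covered over 2.08% at 2i, 8.41% on D3, 0.19% on D4 and 1.97% on D15. Interval widths differ between lists, so covered length also moves with how peaks were called.

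Hox clusters also hold microRNA genes, and their products are shown because accessible regions lay at or near several of them. MicroRNAs of the miR-10 and miR-196 families repress Hox messages among their targets, through the seed, bases 2 to 8, in capitals.
miR-10a-5p: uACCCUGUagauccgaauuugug
miR-10b-5p: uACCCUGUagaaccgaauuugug
miR-196a-5p: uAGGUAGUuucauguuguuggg
miR-196b-5p: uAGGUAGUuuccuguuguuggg
miR-615-3p: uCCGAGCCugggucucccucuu
The miR-10a and miR-10b products share the seed ACCCUGU, and miR-196a and miR-196b share AGGUAGU. The gene of miR-615 lay inside a Hoxc5 region called at D2 (3.12) and D3 (3.89). The miR-196b-5p sequence lay 23 bp from a region beside Hoxa10 called at the same times, at 3.44 and 5.60. The miR-10a-5p sequence lay 958 bp from the Hoxb4 region described above, and miR-10b-5p lay 933 bp from a Hoxd4 region called at 2i, D2, D3, D7 and D8. Both copies of the miR-196a gene lay more than 3 kb from the nearest Hox region.

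Genes that act on or with Hox genes ranged from starts called in 3 lists to starts called in all 12, and no difference from Hox genes was tested. All 9 chromatin regulators examined, among them the Polycomb genes Ezh2, Eed and Suz12, had a start peak in all 12 lists, as 47.1% of all genes did. Of 9 cofactor genes, 6 to 9 had one in each list. Meis1 was called in 9 lists, and Meis2 at D7, D8 and D10. Of 9 upstream genes, 9 had a start peak at 2i, 5 at D0 and D1, 8 from D2 to D6, 9 at D7 and 5 at D10. Cdx1 was called at 2i, D2, D3, D6 and D7, Cdx4 at 2i, D4, D5 and D7, and Cdx2 at 2i and from D2 to D8. Cyp26a1, which degrades retinoic acid, was called in 9 lists. Among 6 flanking genes, Evx1, a homeobox gene beside Hoxa13, was called from D2 to D8, and Evx2, beside Hoxd13, at 2i, D2, D4 and D6 to D8. Both were absent from the lists of D10 and D15, as the Hoxd13 start was, whereas Hoxa13 was called there.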

How the data were processed

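ATAC-seq libraries came from 24 samples, 2 biological replicates at each of 12 time points. Per the submitters' processing notes, the build was mm10 and the tools were MACS2 2.1.1, Picard, SAMtools 1.5, Bowtie2 2.3.2 and cutadapt 2.10. The sources used here do not give settings, depth or how replicates were combined. Each deposited peak has a summit offset, a fold enrichment (a linear ratio of signal to background), a −log10 p-value and a score, all as the authors deposited them. The score is 10 times the −log10 q, cut to a whole number, and the q threshold was applied through it (a score of at least 50). Signal tracks were not used here.

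The 12 lists were pooled and overlapping peaks merged with bedtools 2.31.1 (overlap of at least 1 bp), and a list held a region when any of its peaks overlapped it. A merged region was assigned to a gene by its centre, a summit by its position, and a summit in several Hox bodies to the one with the nearest end. Starts came from the RefSeq promoter table for 22 members. For the other 16 (Hoxa4, Hoxb2, Hoxb3, Hoxb5, Hoxb6, Hoxb7, Hoxb9, Hoxb13, Hoxc5, Hoxc6 and Hoxc8 to Hoxc13), either annotated gene end counted as a start, which can include transcript ends. The assignment was tested on simulated data. Members, lists and comparisons were chosen with earlier results of these data known. Described singly were the 3 members with most regions in each cluster, members whose start was called in 3 to 9 lists, and the highest regions of each class, and further regions and genes were named after their values were seen. Alternatives were a −log10 q of at least 5, equal list lengths (the 31324 peaks with the highest −log10 p in each), other distances (20 and 100 kb) and start windows (500 bp), and a fold enrichment of at least 5.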

Additional observations from a re-analysis of the deposited data

How the results depend on the processing

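No paired analysis was possible because both replicates of a time point share 1 peak list, and for the same reason no replicate could be left out. Alternatives with a fold enrichment of at least 5, those for pairs of lists and late regions, either gene end as start for all genes, and summits by cluster and position without the D4 or D7 list were chosen after seeing the data. Distance limits of 20 and 100 kb, each interval counted once, a start window of 500 bp, either gene end as start, a summit inside the region, summits counted for every Hox body that holds them, and leaving out the D4 or D7 list moved none of the values computed under them beyond the interval or the ratio of 1.5 used here.

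With a −log10 q of at least 5, Hox summits per 1000 peaks were 0.157 on D1, 1.03 on D2, 1.70 on D3, 0.896 on D5, 1.36 on D6, 1.09 on D7, 0.874 on D8, 0.374 on D10 and 0.457 on D15, so D3 replaced D6 as the highest list. With the same number of top peaks per list they were 1.25 on D2, 1.69 on D3, 0.894 on D5, 0.702 on D7 and 0.670 on D8. With a fold enrichment of at least 5 they were 0.296 on D0, 0.185 on D1, 0.672 on D2, 1.41 on D3, 0.578 on D5, 0.819 on D6, 0.706 on D7, 0.482 on D8, 0.123 on D10 and 0.312 on D15. At D4 the share was 0.286, 0.287 and 0.239 under these settings. D4 was not the lowest list under the stricter q, where D1 was lower, nor under the fold setting, where D1 and D10 were lower.

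Members with a start peak numbered 7 at 2i, 5 on D0, 2 on D1, 14 on D2, 4 on D4, 10 on D5, 11 on D6, 18 on D7, 12 on D8, 1 on D10 and 3 on D15 under the stricter q, where 45.3% (D1) to 63.8% (D7) of all genes had one. With equal list lengths they numbered 4 on D4, 10 on D5, 5 on D7 and 8 on D8, beside 53.6%, 59.8%, 60% and 59.7% of all genes. When the peak interval had to cover the start, they numbered 11 on D2, 17 on D3, 9 on D5, 8 on D6, 12 on D7, 8 on D8, 1 on D10 and 3 on D15, where 53.0% (D15) to 61.0% (D7) of all genes had one in these lists.

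Of 70 Hox regions under the stricter q, 0 were called in all 12 lists, 4 were early-lost and 3 late-gained, beside 10.8%, 8.23% and 3.92% of all regions. Of 75 with equal list lengths, 0 were called in all 12 lists, 7 were early-lost and 15 transient, beside 11.8%, 9.72% and 10.9%. Late-gained regions then numbered 9, or 12% beside 5.88% of all. Regions held at D10 or D15 numbered 13 under the stricter q (18.6%, beside 26.6% of all), and Hoxc and Hoxd together held 2. With a fold of at least 5 they numbered 6 (12%, beside 27.2%), with 4 at anterior Hoxb and 2 at Hoxc and Hoxd. Regions missing at D4 between D3 and D5 numbered 13 of 18, 13 of 18 and 6 of 10 under the stricter q, equal lengths and the fold setting, beside 18.2%, 18.5% and 18.7% of all. Regions kept after D7 and D8 numbered 12 of 26, 12 of 13 and 4 of 10, beside 60.9%, 83.7% and 67.1%, so the order turned with equal lengths.

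Summits under the stricter q numbered 51 at Hoxa, 106 at Hoxb, 59 at Hoxc and 63 at Hoxd, and 149 anterior, 42 central and 88 posterior. With equal list lengths these were 63, 132, 72 and 72, and 172, 48 and 119. The fewer peaks kept by construction lower these counts; the cause of the other differences was not tested. Depth per list is unknown, so calls at 2i and D4 in particular may miss low peaks. The D4 list, at 56053 peaks, was still longer than those of D3 and D5.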

Other observations

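Short motifs were counted in the 250 bases before the start, on both strands, over 24 Hox promoters and 21045 promoters of all genes. TTTATG, read by CDX proteins, was in 5 Hox promoters (20.8%, beside 8.94% of all), AGGTCA, a nuclear receptor site, in 6 (25% beside 12.8%) and CCAAT in 14 (58.3% beside 35.6%). TATAAA was in 4 (16.7% beside 11.7%), TGATTG, read by PBX proteins, in 4 (16.7% beside 13.6%) and TGACAG, read by MEIS proteins, in 2 (8.33% beside 15.0%). A match is a run of letters in this window and no measured binding site, and no difference was tested.

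A second gap stood at D1. Of 16 Hox regions called at D0 and D2, 8 were not called at D1, which is 50% (28.0 to 72.0), beside 18.8% of all such regions. This pair of lists was also chosen after the values had been seen.

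Hox region sets of neighbouring lists overlapped unevenly by the Jaccard index, the shared regions as a share of those in either list. It was 0.571 for D2 and D3, 0.183 for D3 and D4, 0.277 for D4 and D5, and 0.534 for D3 and D5. Over all merged regions these were 0.610, 0.328, 0.408 and 0.410. The D2 and D7 sets, 5 days apart, had 0.590 at Hox and 0.330 over all regions.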
